A study of Mus musculus with 39 samples.

Results

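The mitosis genes described here are 44 genes whose products condense, attach, move and separate chromosomes or cut the dividing cell apart. They were followed in epididymal adipose tissue, the visceral fat pad beside the mouse epididymis, by 69 of the 40628 probes of a 1-colour expression array, and they are 44 of the 29411 gene names on that array. The members were chosen because several of them had been seen to be lower at late than at early times on the low fat diet. Their late minus early differences on that diet are therefore given as a description with no test, and each gene is represented by the brightest of its probes.

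The study followed C57BL/6J mice that were weaned at 3 to 4 weeks of age and then put on a diet, with 30 mice in each of 5 groups and 5 mice killed per group every 3 weeks. The LFC mice ate a low fat diet with 10% of calories from fat. The HFC mice ate a high fat diet with 60% of calories from fat and raised sucrose. The HF5, HF20 and HF75 mice ate the HFC diet and were also given KAL-1, a plant-based aqueous formulation, at a dose of 5, 20 and 75 µg. There were 39 arrays, each the only array of its diet and labelled time point, with 11 for LFC, 10 for HFC and 6 for each KAL-1 dose. Weeks were counted from day 14, so that day 14 and week 0 are the same time on the diet. Each label still counts as its own time point below. The days 1, 6, 10 and 14 and week 0 are called early, and weeks 3 to 18 are called late. Only LFC had day 1, and the KAL-1 doses had the late weeks only. The series text speaks of 3 biological replicates, but the labels do not say whether the RNA of several mice was pooled for an array. The time points of a diet stand in for replicates throughout, so that errors and p-values measure the spread between arrays of different time points. Age and time on the diet advanced together in every group and cannot be told apart.

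Mitosis is run by cyclins that switch on the mitotic kinase, by further kinases that build the spindle and watch its attachments, and by the anaphase-promoting complex, which destroys cyclins and releases the sister chromosomes. Most of the genes for these parts are silent in resting cells and are switched on together late in the cell cycle. In adipose tissue, mature fat cells do not divide, and the dividing cells are precursors, vessel cells and immune cells. In a piece of whole tissue, fewer dividing cells and less RNA per cell cannot be told apart.

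Genes of this class are known to share promoter elements: the cell cycle genes homology region (CHR), at which the DREAM and MuvB complexes bind, and CCAAT boxes, which bind the factor NF-Y. RefSeq promoter windows on GRCm38.p6, from 250 bases before to 50 bases after the annotated start, were found for 35 members, with 37 windows in all, 1 of these members (2610002D18Rik) being matched through an older name. The CHR was searched as TTTGAA or TTCGAA, the CCAAT box as CCAAT and the E2F site as TTTGGCGC, TTTCGCGC or TTCCCGCC, each on both strands. TTCGAA is its own reverse complement and was counted once, and in the member windows a CHR and a CCAAT box shared a base in Cdca8 only. A CHR lay in 29 of the 37 windows (78.4%) and in 19.2% of all 32851 windows of the table. A CCAAT box lay in 78.4% of the member windows and in 37.4% of all windows, and both elements lay in 70.3% and 7.52%. At least 2 CCAAT boxes were held by 51.4% of the member windows and 11.7% of all windows. These E2F letters were in 0 of the 37 member windows and in 2.96% of all windows. A match is a description of letters and was not tested for binding.

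In 9 members, Cdc20, Ect2, Espl1, Kif11, Kif22, Prc1, Top2a, Trim59 and Ube2c, a CHR and a CCAAT box both lay within the last 120 bases before the start. The following stretches are those last 120 bases, 5′ to 3′ on the strand of the gene, from RefSeq on GRCm38.p6, with CHR and CCAAT matches of either strand in capitals (TTCAAA and ATTGG are the reverse complements). Cdc20, Ube2c and Espl1 act in sister separation, Kif22 and Kif11 are spindle motors, and Top2a untangles DNA. Ccnb2 is shown for its 3 CCAAT boxes, and Birc5 because its whole window held neither element.
Cdc20, chr4:118437344-118437463, strand minus: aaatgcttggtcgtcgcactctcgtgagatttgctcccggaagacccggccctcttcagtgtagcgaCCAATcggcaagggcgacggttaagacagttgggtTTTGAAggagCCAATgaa
Ube2c, chr2:164769809-164769928, strand plus: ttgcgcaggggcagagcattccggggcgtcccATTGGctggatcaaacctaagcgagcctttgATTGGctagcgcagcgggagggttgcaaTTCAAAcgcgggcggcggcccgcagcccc
Espl1, chr15:102296173-102296292, strand plus: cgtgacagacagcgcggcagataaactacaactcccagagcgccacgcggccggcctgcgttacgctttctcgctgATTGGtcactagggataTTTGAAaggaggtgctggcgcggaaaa
Kif22, chr7:127042421-127042540, strand minus: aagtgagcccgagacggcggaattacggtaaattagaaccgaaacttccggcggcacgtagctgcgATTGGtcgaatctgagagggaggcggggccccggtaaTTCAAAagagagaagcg
Kif11, chr19:37376262-37376381, strand plus: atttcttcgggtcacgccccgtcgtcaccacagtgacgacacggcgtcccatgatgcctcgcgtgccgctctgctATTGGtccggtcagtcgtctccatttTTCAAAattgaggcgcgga
Top2a, chr11:99024190-99024309, strand minus: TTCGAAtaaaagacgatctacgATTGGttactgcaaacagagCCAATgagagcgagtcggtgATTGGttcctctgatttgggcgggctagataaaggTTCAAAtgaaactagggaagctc
Ccnb2, chr9:70421555-70421674, strand minus: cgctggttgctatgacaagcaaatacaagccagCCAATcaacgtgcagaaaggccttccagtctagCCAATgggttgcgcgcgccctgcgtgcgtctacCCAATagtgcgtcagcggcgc
Birc5, chr11:117849117-117849236, strand plus: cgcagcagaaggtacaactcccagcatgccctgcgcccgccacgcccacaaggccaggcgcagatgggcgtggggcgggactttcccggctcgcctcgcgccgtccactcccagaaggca
In Cdc20, Ube2c, Espl1, Kif11, Kif22 and Top2a, the CHR nearest the start began at a position from -29 to -17 relative to it, downstream of a CCAAT box. In 16 members a CHR lay within the first 50 bases from the start on. Neither element was found in the windows of 2610002D18Rik, Birc5, Melk, Nuf2 and Nusap1.

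**Figure D1:**
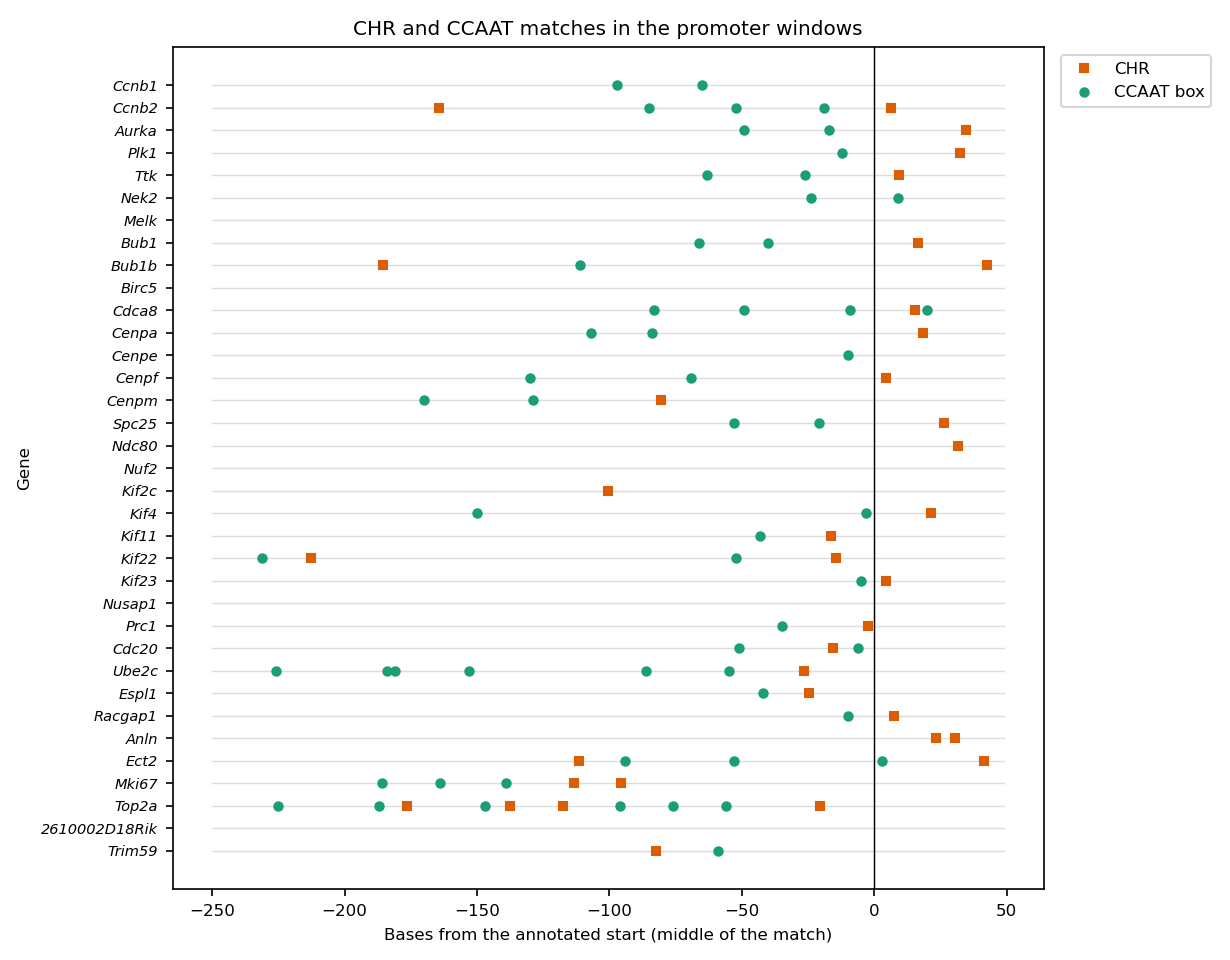
Positions of CHR and CCAAT box matches in the RefSeq promoter windows of the members. The x axis gives the bases from the annotated start, with 0 as the start. Each line is the first window of a gene, and the second windows of Prc1 and Ect2 are not drawn. Both elements lie in 70.3% of the 37 windows, these second windows included, and the CCAAT boxes lie mostly before the start.

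All values below are log2 of the background-corrected signal minus the 75th percentile of the same array, so that 0 is the level of a bright probe on that array and a difference of 1 is a doubling. A probe was called well above background by the scanner software's own flag. Of the 44 members, Ttk was well above background on 6 of 39 arrays, Esco2 on 9, Cenpm and 2610002D18Rik on 16 each, Kif11 and Anln on 24, Kif2c on 25 and Aurkb on 31. The other members were well above background on at least 34 arrays, 20 of them on all 39. No member spot was saturated.

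The LFC week 3 array and the HFC week 12 array stood apart. They carried 16431 and 10531 spots flagged as outliers, against 21 to 387 on the other 37 arrays, and 97.1% and 94.5% of their spots were called well above background, against 53.7% to 79.6%. Outlier spots were treated as missing, which left 24 and 35 of the 44 members with a value on these arrays, and the main summaries are also given without them. Before scaling, the brightness at which this percentile lay differed widely, between 119 and 1515 intensity units. The arrays of days were scanned on 4 dates and those of weeks 0 to 18 on 9 other dates, and no early array shared a scan date with a late one. Scan date and period therefore cannot be told apart. The adipocyte markers Adipoq, Plin1, Cidec, Fabp4, Pparg, Lep and Lipe, 7 of 7 on the array, were well above background on all 39 arrays, with a summed log2 signal between 6.63 and 9.82.

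On LFC, 39 of the 43 members that passed the filter on dim probes were lower late than early, with a median difference of -2.39 (5.25-fold), while the median over all 30421 probes tested was -0.09. Over all probes tested, 0.220% were lower at an adjusted p under 0.05. In 32 of the 43, each late array with a value lay below each early array, as did 0.894% of all probes, and 18 of these 32 had a value on LFC week 3, the array that stood apart, while 14 were judged on the other 5 late arrays. Cenpm, Esco2 and 2610002D18Rik passed the filter through their early arrays alone. The members were chosen on this contrast, so nothing is read from these counts. Without the LFC week 3 array the median was -2.44, and with the normexp background correction in place of the scanner's own it was -0.95. With week 0 as the only early array the median was -2.31 and 42 of 43 were lower.

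The 10 HFC arrays are not part of the LFC contrast on which the members were chosen, but they are not wholly independent of the choice, since Aurkb and Trim59 were already known from comparisons that use HFC arrays and earlier results of the series were known. Of the 44 members, 41 were lower late than early, with a median difference of -1.65 (3.13-fold) against 0.03 over all probes. In limma's moderated test with Benjamini-Hochberg adjustment over 30582 probes, 0 of 44 members were called at an adjusted p under 0.05, as for all probes (0%). Their adjusted p-values ran from 0.21 to 0.836. At an unadjusted p under 0.05, 37 of 44 members were lower, against 8.80% of all probes. Esco2 passed the filter only through its 4 early arrays, and without it the count was 36 of 43 and the median -1.64. Each late array with a value lay below each early array for 14 members, namely Ccna2, Ccnb1, Ccnb2, Plk1, Pbk, Cenpf, Spc24, Nuf2, Kif4, Kif20a, Kif23, Nusap1, Esco2 and Anln, against 2.02% of all probes. Kif4, Kif23, Nusap1, Esco2 and Anln had no value on HFC week 12, so that for these 5 genes the statement covers the other 5 late arrays, and 9 members were below on all 6.

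The HFC call depended on the week 0 array and on how arrays were weighted. Without week 0, 6 members were called at an adjusted p under 0.05, all lower. Of all probes, 743 were called, 419 lower and 324 higher. Ccnb1, Plk1, Nek2, Cenpf and Nuf2 were 5 of the members called, and the other, Esco2, was tested only because of its early arrays and is not counted as support. With arrays weighted by their residual spread, 34 members (33 without Esco2) were called, all lower. That setting called 7917 probes in all, 3973 lower and 3944 higher, where the main fit tested 30582 and called 0. Without the HFC week 12 array the median over the members was -1.70 and 0 were called. With week 0 as the only early array the median was -1.07, smaller in size than the -1.65 of the main fit, and 43 of 44 members were lower. With a single early array no test is read from that fit.

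**Figure D2:**
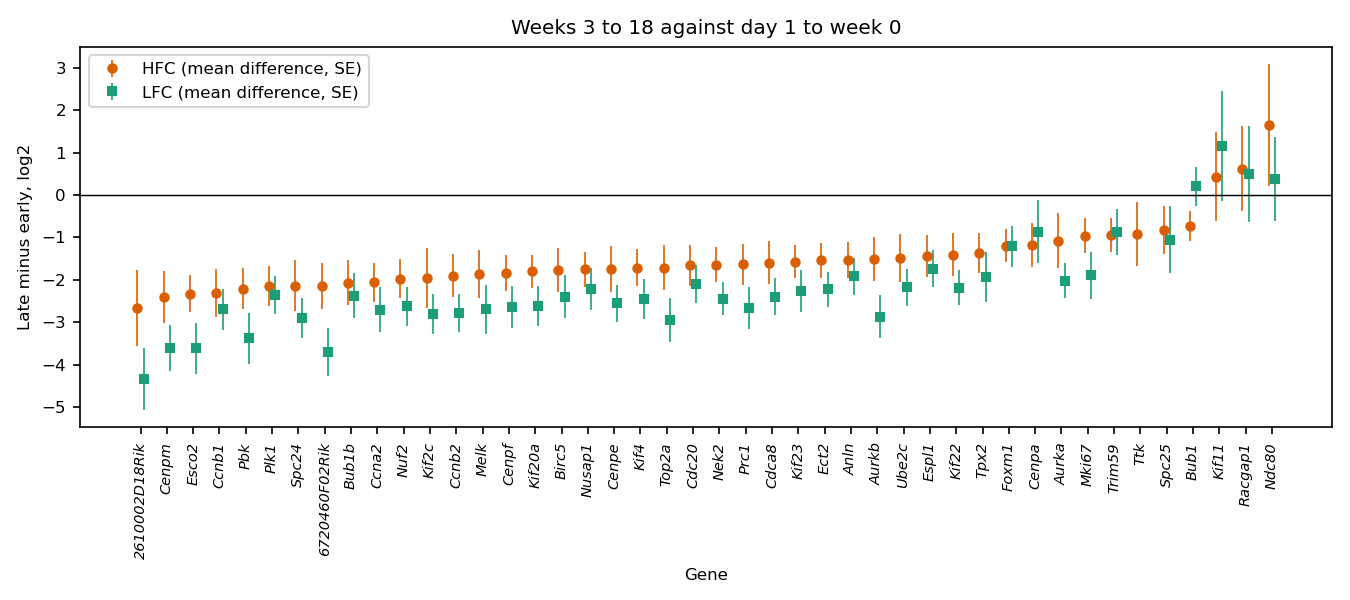
Late minus early difference in log2 signal for each member (x axis) on HFC (circles) and LFC (squares), with the standard error as the bar. On HFC 41 of 44 members lie below 0 and on LFC 39 of the 43 that passed the filter on dim probes. Ndc80, Racgap1 and Kif11 lie above 0 on both diets, with wide bars.

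The cyclins and Foxm1, which start mitosis, had median differences of -2.69 on LFC and -1.97 on HFC, and of -2.72 and -2.04 without the arrays that stood apart. Ccnb2, a B-type cyclin that activates the mitotic kinase, stood at 1.38, 2.70, 2.16, 2.14 and 1.85 on the LFC arrays of days 1, 6, 10 and 14 and week 0. On the late LFC arrays it ranged from -1.64 to 0.45 with a median of -0.81. The 2 LFC periods did not overlap, and their means were 2.04 ± 0.48 (SD, n = 5) and -0.74 ± 0.85 (SD, n = 6).

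On HFC, Ccnb2 stood at 2.88, 3.18, 0.77 and 1.18 on days 6, 10 and 14 and at week 0, and late arrays ranged from -0.82 to 0.71 with a median of 0.25. The early values fell into a high pair on days 6 and 10 and a lower pair on day 14 and at week 0, and all late arrays lay below both pairs. The late minus early difference was -1.90 (SE 0.51, limma adjusted p = 0.211). The other 3 genes of the group were also lower on HFC, with -2.31 for Ccnb1, -2.05 for Ccna2, the cyclin of S phase and early mitosis, and -1.19 for Foxm1, the factor that activates many of these genes, and all 4 genes reached an unadjusted p under 0.05, against 8.80% of all probes.

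Among the 9 kinases and checkpoint genes, the median differences were -2.40 on LFC, over the 8 that passed the filter there, and -1.64 on HFC, where 6 of 9 were lower at an unadjusted p under 0.05, against 8.80% of all probes. Without the arrays that stood apart the medians were -2.50 and -1.86, with 7 of 9 at that p, against 7.63% of all probes. Aurka, the kinase of the spindle poles, stood at 0.71, 1.67, 1.23, -0.13 and 0.26 on the early LFC arrays and between -2.17 and -0.64 (median -1.12) on the late ones. On HFC it stood at 1.88 and 0.94 on days 6 and 10, at -1.97 on day 14 and at -0.24 at week 0. The HFC day 14 value lay below all late HFC arrays, which ranged from -1.95 to -0.25 with a median of -0.76, and the difference was -1.08 (SE 0.65, adjusted p = 0.387).

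Pbk, a mitotic kinase, showed one of the wider gaps. It stood at -0.48, 0.24, -0.32, -0.0013 and -0.18 on the early LFC arrays and between -5.34 and -1.52 (median -3.20) on the late ones. On HFC the early arrays read 0.46, -0.35, -1.80 and -1.05, and the late arrays lay between -3.74 and -2.15 with a median of -2.77. The periods did not overlap on either diet, and the HFC difference was -2.20 (SE 0.48, unadjusted p = 0.000751, limma adjusted p = 0.21).

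Aurkb, the kinase of the chromosomal passenger complex, which corrects wrong spindle attachments, stood at -2.97, -1.32, -2.86, -2.81 and -1.90 early on LFC and between -6.29 and -3.60 (median -5.48) late, where it was well above background on 3 of 6 arrays. On HFC the early values were -0.79, -1.39, -3.76 and -2.69, and the late ones lay between -4.10 and -3.26 (median -3.70). The HFC difference was -1.51 (SE 0.52, limma adjusted p = 0.236), and the day 14 value lay among the late values. Plk1, which drives spindle assembly and mitotic exit, had -2.35 on LFC and -2.15 on HFC, Nek2, a kinase of the centrosome, -2.44 and -1.64, Melk -2.69 and -1.87, and Bub1b, the checkpoint protein that holds back anaphase, -2.37 and -2.06.

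Ttk, the kinase that starts the spindle checkpoint, was dim. It did not pass the filter on LFC, where no late array was well above background. Since 2 of its 5 early LFC arrays were above background, no fold is given. Its HFC difference was -0.91 (SE 0.75). It passed the HFC filter through 3 early arrays and HFC week 12, the array that stood apart. That array read -4.20, and the other late HFC arrays lay between -8.57 and -7.36.

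Birc5 and Cdca8, partners of Aurkb in the passenger complex, had LFC differences of -2.39 and -2.40 and HFC differences of -1.77 and -1.59. Birc5, whose promoter window held neither motif, stood at 1.75, 3.10, 2.12, 2.28 and 2.001 early on LFC and between -1.44 and 0.86 (median 0.29) late. Its HFC values were 3.41 and 3.28 on days 6 and 10, 0.98 on day 14 and 1.39 at week 0, with late arrays between -0.50 and 1.05 (median 0.59). The HFC day 14 value lay within the late range, and the difference had an SE of 0.53 and an adjusted p of 0.224 in limma's test.

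The 8 genes of the centromere and kinetochore, the plates by which chromosomes hold the spindle, had median differences of -2.58 on LFC and -1.79 on HFC, and 6 of 8 were lower on HFC at an unadjusted p under 0.05, against 8.80% of all probes. When the arrays that stood apart were left out, the medians were -2.67 and -1.85, with 5 of 8 at that p, against 7.63% of all probes. Cenpe, a kinetochore motor, stood at 1.17, 2.39, 1.74, 1.68 and 1.16 early on LFC and between -1.91 and 0.11 (median -0.81) late. On HFC it read 2.74 and 2.75 on days 6 and 10, 0.56 on day 14 and 0.45 at week 0, and late arrays lay between -1.08 and 0.47 (median 0.0029). All but the week 0 value lay above the highest late array, and the difference was -1.74 (SE 0.53, adjusted p = 0.227, limma).

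Cenpm, a centromere protein, stood at -3.56, -2.05, -4.16, -3.40 and -4.03 on the early LFC arrays, and no late LFC array measured it well above background, so that it was at least 9.22-fold lower late. Arrays of HFC read -2.85, -3.13, -4.80 and -4.39 early and between -7.83 and -4.56 (median -6.16) late, with a difference of -2.40 (SE 0.61, adjusted p = 0.21) and 3 of 6 late arrays above background. Cenpf, a kinetochore protein that accumulates before mitosis, had differences of -2.64 on LFC and -1.83 on HFC and Cenpa, the centromeric histone, -0.87 and -1.18. By their brightest probes, the subunits of the NDC80 complex, which binds microtubules, were uneven. Nuf2 had -2.62 and -1.97, Spc24 -2.89 and -2.14, Spc25 -1.05 and -0.82, and Ndc80 itself 0.38 (SE 0.99) and 1.64 (SE 1.43). The second Spc25 probe, well above background on 38 arrays, gave -2.27 on LFC and -1.78 on HFC.

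The 9 kinesins and spindle proteins had medians of -2.25 on LFC and -1.63 on HFC, where 8 of 9 were lower at an unadjusted p under 0.05, against 8.80% of all probes. With the arrays that stood apart left out, the medians were -2.30 and -1.69. Again 8 of 9 reached that p, against 7.63% of all probes. Kif22, a kinesin that pushes chromosome arms, stood at 1.22, 3.08, 1.54, 1.67 and 1.39 early on LFC and between -1.17 and 0.09 (median -0.19) late. The early HFC values were 3.04, 2.17, 0.64 and 0.50, and the late ones lay between -0.65 and 0.86 (median 0.16). The lower pair of early HFC arrays overlapped the late ones, with a difference of -1.41 (SE 0.51, adjusted p = 0.246 in limma).

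Kif20a and Kif23, kinesins of the central spindle, had HFC differences of -1.80 and -1.57, Kif2c, which takes microtubules apart, -1.96, and Kif4, a motor of chromosome arms, -1.71. Prc1, which bundles microtubules at the midzone, had -2.65 on LFC and -1.63 on HFC, Tpx2, which activates Aurka, -1.93 and -1.36, and Nusap1, a microtubule stabiliser, -2.21 and -1.75.

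The 4 genes of sister separation had medians of -2.13 on LFC and -1.57 on HFC. Cdc20, Ube2c and Espl1 were each lower on HFC at an unadjusted p under 0.05, against 8.80% of all probes. Esco2 is not counted here, since it passed the HFC filter through its early arrays alone. The medians were -2.17 and -1.68 without the arrays that stood apart. Cdc20, the activator of the anaphase-promoting complex, stood at 1.23, 2.88, 1.82, 2.003 and 1.51 early on LFC and between -1.41 and 0.58 (median -0.03) late. On HFC it stood at 2.96, 2.85, 0.85 and 1.13 early and between -0.44 and 0.91 (median 0.31) late, and the difference was -1.65 (SE 0.48, adjusted p = 0.224, limma). Only day 14 of the early HFC arrays lay inside the late range.

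Esco2, which acetylates cohesin so that sisters stay joined, stood at -3.59, -4.37, -4.77 and -4.80 on the early HFC arrays and between -7.67 and -5.68 (median -6.64) on the 5 late ones with a value, with a measured difference of -2.32. It was well above background on all 9 early LFC and HFC arrays and on no other array, so that it passed the HFC filter through the early arrays alone and its late level is a bound, at least 4.06-fold lower on HFC. No p-value is read from it. On LFC it stood at -3.89, -4.13, -4.14, -4.09 and -2.58 early and between -9.18 and -6.01 late, at least 8.08-fold lower. Ube2c, the ubiquitin carrier of the complex, had -2.18 on LFC and -1.48 on HFC, and Espl1, separase, -1.73 and -1.44.

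Of the cytokinesis genes, Anln, an actin binder of the cleavage furrow, and Ect2, which activates RhoA there, were lower late on both diets, with differences of -1.92 and -2.22 on LFC and of -1.54 for each on HFC. Racgap1, the partner of Kif23 in the central spindle, stood at -2.58, -1.44, 0.03, -0.60 and 0.16 early on LFC and between -5.11 and 1.67 (median 0.91) late. On HFC the early values were -1.43, -1.44, -2.58 and 0.07, and the late ones lay between -3.54 and 1.87 (median -0.93), a difference of 0.61 (SE 1.00, adjusted p = 0.749). The late arrays of Racgap1 spanned more than the early ones on both diets, and no direction was resolved.

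Mki67, the Ki-67 protein that coats mitotic chromosomes and serves as the common marker of dividing cells, stood at 1.73, 3.02, 1.82, 2.92 and 2.83 early on LFC and between -1.16 and 1.98 (median 0.61) late. Its early HFC values were 3.38, 2.56, 1.44 and 2.16, and the late ones lay between 0.55 and 1.81 (median 1.69). The HFC difference of -0.96 (SE 0.40, adjusted p = 0.277) was smaller than that of most members. Top2a, topoisomerase II alpha, had -2.94 on LFC and -1.71 on HFC.

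The remaining 3 members included 2 with array names that RefSeq has since replaced. 6720460F02Rik, now Pimreg, stood at -1.38, 0.56, -1.19, -0.26 and -0.24 early on LFC and between -5.54 and -2.99 (median -3.93) on 5 late arrays. Arrays of HFC read 0.80, -0.39, -1.58 and -1.03 early and between -3.85 and -1.40 (median -2.67) late, and the difference was -2.14 (SE 0.54, adjusted p = 0.21). The HFC week 12 array lay above the day 14 value, and all other late arrays of both diets lay below the early ones.

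2610002D18Rik, now Aunip, which binds Aurka at spindle poles, stood at -2.76, -1.32, -3.29, -3.77 and -3.97 early on LFC, and no late LFC array measured it well above background, so that it was at least 13.8-fold lower late. The early HFC values were -1.52, -1.52, -3.995 and -3.78, and the late ones lay between -7.78 and -3.34 (median -5.02), with 3 of 6 late arrays above background and a difference of -2.66 (SE 0.89, adjusted p = 0.231). Trim59, a ubiquitin ligase, stood at -3.29, -2.54, -3.30, -2.47 and -2.04 early on LFC and between -5.08 and -2.28 (median -3.83) on 5 late arrays. On HFC it stood at -1.51, -2.52, -3.12 and -2.68 early and between -3.93 and -2.48 (median -3.66) on 5 late arrays, a difference of -0.94 (SE 0.41, adjusted p = 0.288). The Trim59 periods overlapped on both diets.

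**Figure D3:**
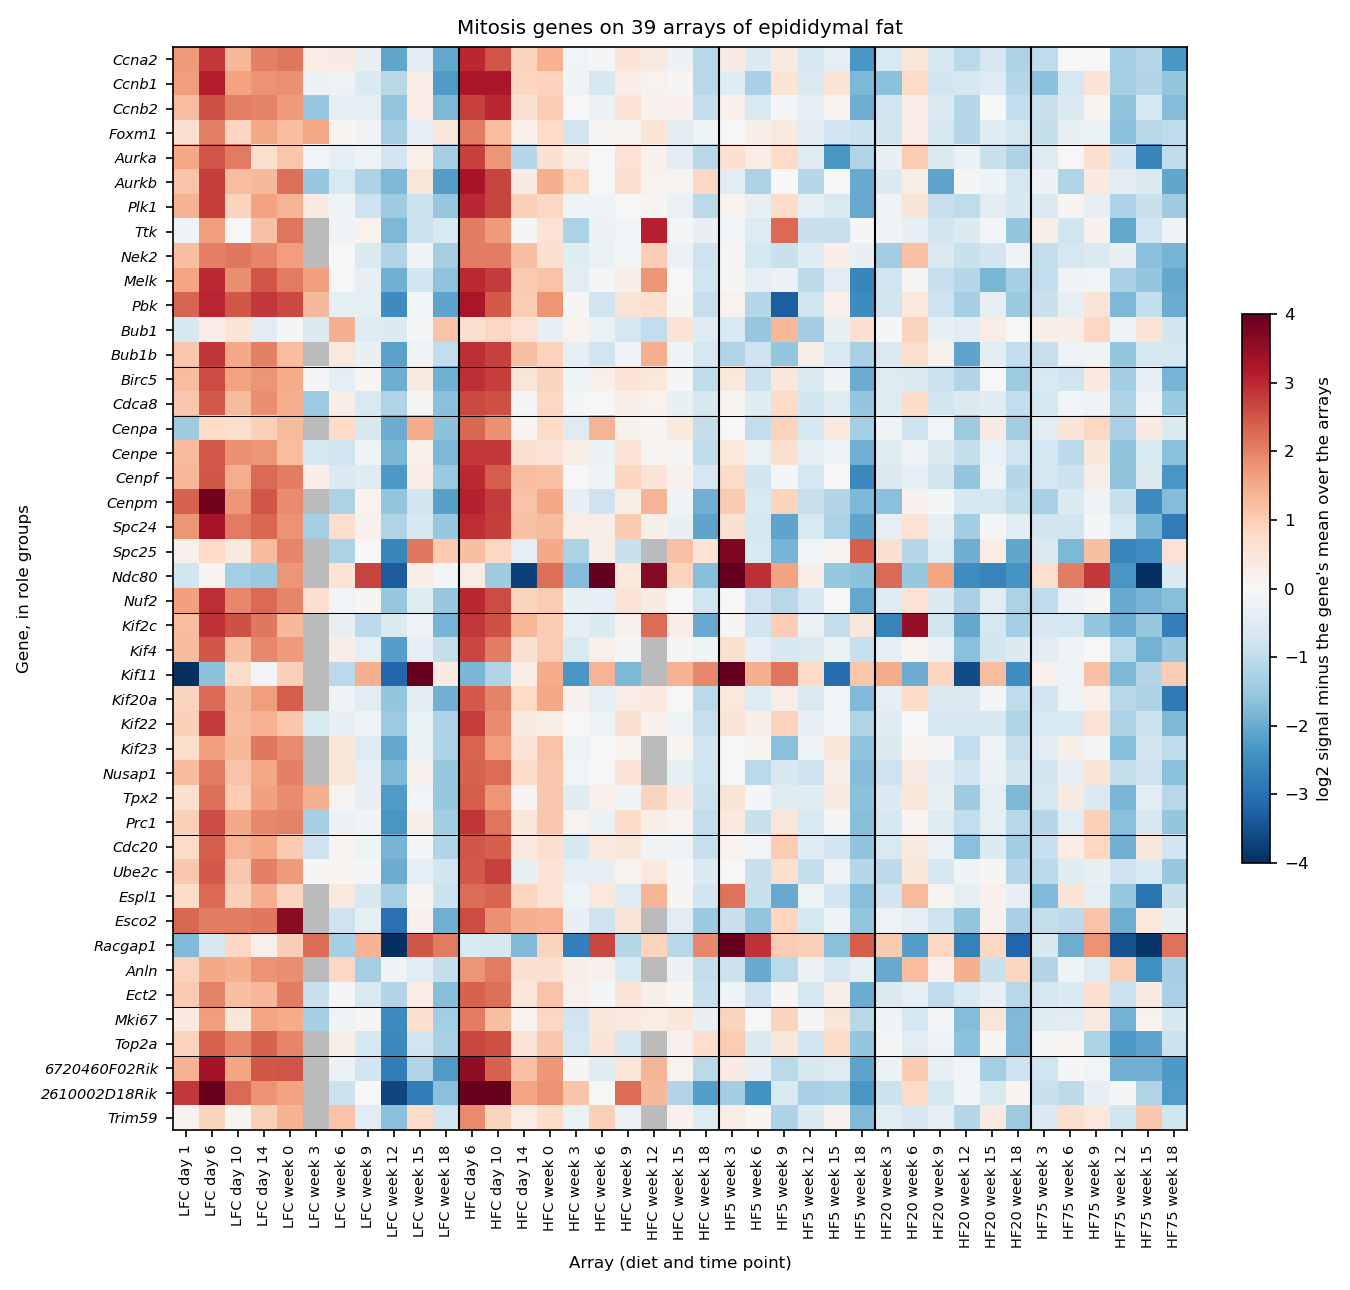
Heat map of the 44 members (y axis, in role groups) on the 39 arrays (x axis, by diet and time), coloured by the log2 signal minus the mean of the gene over the arrays, with missing outlier spots in grey. The early arrays of LFC and HFC are high for most members, and the HFC arrays of day 14 and week 0 are paler than those of days 6 and 10.

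On LFC 4 of the members departed from the common direction, and for 3 of these a second probe did not. For Kif11, the motor that pushes spindle poles apart, the brightest probe stood at -9.40, -7.07, -4.69, -5.54 and -4.48 early on LFC and between -8.57 and -1.27 (median -5.09) on 5 late arrays. On HFC the early values were -7.27, -6.64, -5.15 and -3.94, and the late ones lay between -7.76 and -3.49 (median -4.07) on 5 arrays, a difference of 0.43 (SE 1.04, adjusted p = 0.836). Its values spread over several log2 units within each period. The other Kif11 probe gave -2.71 on LFC and -1.73 on HFC.

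For Bub1, the checkpoint kinase, the brightest probe stood at -2.20, -1.24, -1.003, -1.98 and -1.58 early on LFC and between -2.10 and -0.11 (median -1.83) late, a difference of 0.20 (SE 0.46). Its early HFC values were -0.86, -0.72, -0.97 and -1.88, and the late ones lay between -2.52 and -1.01 (median -1.92), a difference of -0.73 (SE 0.36, adjusted p = 0.319). The second Bub1 probe, well above background on 34 arrays, gave -2.76 and -1.37. The second Racgap1 probe gave -1.14 on LFC and -1.61 on HFC and was well above background on 19 arrays, and Ndc80 had a single probe.

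The probes of Kif11 and Racgap1 that disagreed in direction can be told apart by the first 30 of their 60 bases, given from the scanner files in lower case with no part marked.
Kif11, brightest probe, bases 1 to 30: gaggagtgataatcaaagacttagaggaaa
Kif11, other probe, bases 1 to 30: cctacctaaaagtgtatgcagagagtaagt
Racgap1, brightest probe, bases 1 to 30: aggggagaggagatccctttggcttaaagc
Racgap1, other probe, bases 1 to 30: aatctggttccattttatcagatatcagct
In all, 18 members had more than 1 probe, with 25 further probes. The sign of the late minus early difference of the brightest probe was shared by 20 of the 25 on LFC and 21 on HFC, and 23 of the 25 lay below 0 on HFC. The exceptions on HFC were a second Ect2 probe at 0.65, well above background on 4 arrays, and a second Trim59 probe at 0.57. The 5 Ccnb1 probes lay between -1.83 and -2.56 on HFC.

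The order of the arrays within the early period differed between the diets. The median over the 44 members was -1.46, -0.48, -1.16, -0.56 and -0.62 on the LFC arrays of days 1, 6, 10 and 14 and week 0. On HFC it was -0.01 and -0.39 on days 6 and 10 and -1.97 and -1.33 on day 14 and at week 0. The HFC arrays thus stood above the LFC arrays first and below them afterwards: LFC minus HFC had a median of -0.21 on day 6 and -0.80 on day 10, with 37 of 44 members lower on LFC each time, and then 1.15 on day 14 and 0.69 at week 0, with 42 and 41 of 44 higher on LFC. The median over all probes of the same differences was 0.18, 0.36, 0.05 and 0.04. Each of these is a pair of single arrays and was not tested.

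In the late weeks the median over the members was -1.36, -2.36, -2.79, -4.37, -2.38 and -3.75 on the LFC arrays of weeks 3, 6, 9, 12, 15 and 18, the first of these over 24 members. On HFC it was -2.77, -2.32, -2.25, -1.40, -2.37 and -3.08, the week 12 value over 35 members. The highest late value of each diet came from the array that stood apart, and at week 12 the LFC minus HFC median was -2.37. Averaged over arrays, the median was -0.86 ± 0.43 (SD, n = 5) in the early period and -2.83 ± 1.08 (SD, n = 6) in the late period on LFC, and -0.92 ± 0.89 (SD, n = 4) and -2.36 ± 0.57 (SD, n = 6) on HFC. Without the array that stood apart the late values were -3.13 ± 0.90 on LFC and -2.56 ± 0.36 on HFC (SD, n = 5 each). The median over all probes stood at -3.13 ± 0.16 and -2.94 ± 0.66 on LFC and at -3.19 ± 0.06 and -2.98 ± 0.54 on HFC.

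**Figure D4:**
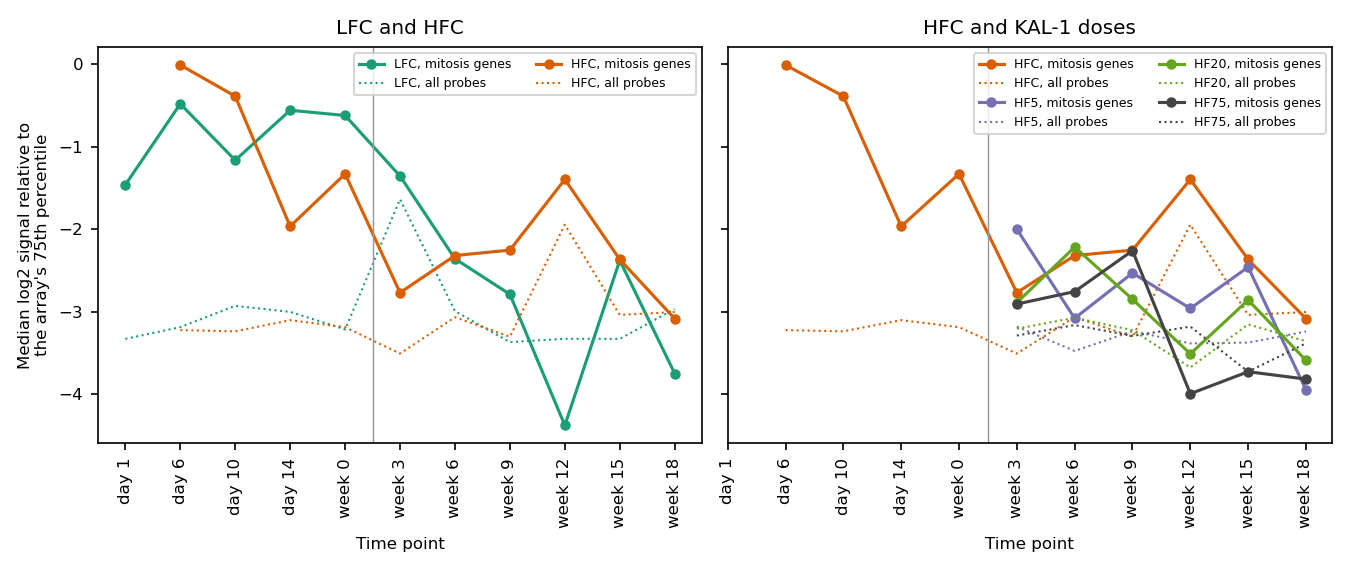
Median log2 signal over the members (solid lines with points) and over all probes (dotted lines) at each time point, with LFC and HFC on the left and HFC and the KAL-1 doses on the right, and 1 array per point. The grey line parts early from late arrays, and the members' medians reach -0.01 on HFC day 6 and -4.37 on LFC week 12.

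Within the late weeks, a further trend was looked for on the 24 HFC and KAL-1 arrays, with no LFC array and no array of days. From week 3 to week 18 the median change over the 42 members tested was -0.89, and 41 of them were lower at the end. In limma with the arrays of a week as a random block, 0 members were called, as for all probes (0%), and 13 of 42 were lower at an unadjusted p under 0.05, against 1.69% of all probes. Aurka had the smallest p-value (-1.73 over the 15 weeks, SE 0.49, unadjusted p = 0.00202, adjusted p = 1.0). Ndc80, which was higher late than early on HFC, had -4.05 (SE 1.43). The trend rested on the last week, since without the week 18 arrays the median was -0.28, 29 of 42 members were lower and 2 reached an unadjusted p under 0.05. Without the HFC week 12 array the median was -0.93. With normexp it was -0.59, and 5 of 42 members were lower at an unadjusted p under 0.05, against 0.831% of all probes.

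Whether the diets differed at matched times was asked of the same members. These comparisons share the LFC arrays that entered the choice of members, so counts are given as a description and nothing is read from them. Over the 10 time points that HFC and LFC have in common, the median of HFC minus LFC was 0.26 over 42 members, with 34 higher, and 0 members and 0% of probes were called in limma. At an unadjusted p under 0.05, 2 of 42 were higher, against 1.36% of all probes, which were Aurkb, known beforehand to be higher on HFC, at 0.97 and 2610002D18Rik at 1.18 (SE 0.51). When both arrays that stood apart were left out the median was 0.02 and 19 of 42 were lower, and with normexp it was -0.04.

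In the main setting, the late minus early difference itself was larger in size on LFC than on HFC, by a median of 0.82 over 42 members, 39 of which were in that direction. Over all probes the median of the same quantity was 0.15. In the test of this difference of differences 0 members were called, as for all probes (0%), and 0 were higher at an unadjusted p under 0.05, against 3.66% of all probes. The smallest p-value belonged to 6720460F02Rik, at 1.79 (SE 0.82). Without the arrays that stood apart the median over the members was 0.59, and without day 14 it was 0.42. With normexp it was 0.07, and 17 of 42 members went the other way. The number of members at an unadjusted p under 0.05, in either direction, was 9 of 42 without day 10 and 4 without week 15. It was 16 with arrays weighted by their residual spread. No share over all probes is given for these counts, so they cannot be set against a background and nothing is read from them. No member was called under any alternative run, so that the LFC and HFC changes were not shown to differ.

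In weeks 3 to 18 alone, HFC minus LFC had a median of 0.56 over 42 members, with 37 higher. In the fit of all 30 late arrays 0 members were called (0% of probes), and 13 were higher at an unadjusted p under 0.05, against 1.24% of all probes. The difference was 1.97 (SE 0.60) for 2610002D18Rik and 1.57 for Aurkb. No member was without overlap between the groups. Without the arrays that stood apart the median was 0.40, without week 12 it was 0.24, and with normexp it was -0.07. The 13 members at an unadjusted p under 0.05 became 4 without the arrays that stood apart, 2 without week 12 and 5 with normexp. They became 4 with the slide as a block, 3 in the methods' t-test and 1 from the authors' table. These alternative counts take either direction, and no share over all probes is given for them, so they cannot be set against a background.

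The KAL-1 doses were each compared with HFC in the late weeks, in the same fit. The members lay lower on each dose than on HFC by the 75th percentile scaling, with medians over 42 members of -0.29 on HF5, -0.46 on HF20 and -0.75 on HF75 and with 35, 40 and 39 of 42 lower. All 3 comparisons share the 6 HFC arrays, and differences between doses were not tested. When each array was centred on its median instead, the medians were 0.06, -0.15 and -0.43, but this scaling moved the median over all probes to 0.32, 0.24 and 0.34, from -0.03, -0.07 and -0.01.

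On HF5, 0 members were called, as for all probes (0%), and 5 of 42 were lower at an unadjusted p under 0.05, against 2.30% of all probes. The smallest p-value was that of 2610002D18Rik, which ranged from -7.95 to -6.18 (median -6.92) on HF5, with a difference of -1.75 (SE 0.56, adjusted p = 0.954). No HF5 array measured it well above background. In the same week, 8 of 44 members were lower on HF5 at week 3, 36 at week 6, 24 at week 9, 32 at week 15 and 34 at week 18, and 34 of 35 at week 12, so that week 3 ran the other way with a median of 0.39. The median over all probes between these 2 arrays was 0.47, larger than that of the members. At week 9 the median over all probes was 0.81, against -0.12 over the members. The HF5 week 9 array had the lowest 75th percentile of all arrays, 119 intensity units. On it, 29 of 44 members were well above background.

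On HF20, 0 members were called (0% of all probes), and 7 of 42 were lower at an unadjusted p under 0.05, against 3.32% of all probes. Birc5 had the smallest p-value, with -0.90 to 0.49 (median -0.21) on HF20, and a difference of -0.75 (SE 0.29, adjusted p = 0.78). Trim59, which was known beforehand from this comparison, had -0.50 and gets no test. Week 6 ran the other way, with 30 of 44 members higher on HF20 and a median of 0.32 against -0.33 over all probes. That array also had the highest sum of testis and germ cell markers of all arrays, 6.50 against -1.68 to 2.70 on the other HF20 arrays, and the part of this in the result was not tested.

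On HF75, 0 members were called (0% of all probes), and 20 of 42 were lower at an unadjusted p under 0.05, against 1.24% of all probes. Cenpf, with the smallest p-value, ranged from -4.20 to -1.62 (median -2.66) on HF75 and from -2.55 to -1.02 (median -1.79) on HFC, and the difference was -1.09 (SE 0.35, unadjusted p = 0.00447, adjusted p = 1.0). The ranges overlapped for Cenpf and for all other members tested. The highest dose had a median below 0 in each of the 6 weeks, from -0.07 at week 9 to -1.78 at week 12, the week of the HFC array that stood apart, where all probes had medians of 0.16 and -0.17. Mki67, as a marker of division, ranged from -0.56 to 1.71 (median 0.88) on HF75, from -0.42 to 1.82 (median 0.93) on HF20, from 0.24 to 2.25 (median 1.61) on HF5 and from 0.55 to 1.81 (median 1.69) on HFC.

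Without the arrays that stood apart, the medians were -0.18, -0.30 and -0.56 on HF5, HF20 and HF75. The members lower at an unadjusted p under 0.05 then numbered 2, 3 and 12 of 42, against 3.25%, 2.09% and 0.986% of all probes. With the median scaling these numbers were 1, 1 and 1, against 0.579%, 1.28% and 0.277%. After quantile normalisation the number on HF75 was 8, against 0.407%. For the other alternatives the counts take either direction, and no share over all probes is given, so they cannot be set against a background. On HF75 they were 9 without week 12 on all diets and 12 without week 15. With the slide as a block they were 2, 1 and 11. On HF20 there was 1 without week 9 or without week 12, and on HF5 9 without week 3.

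**Figure D5:**
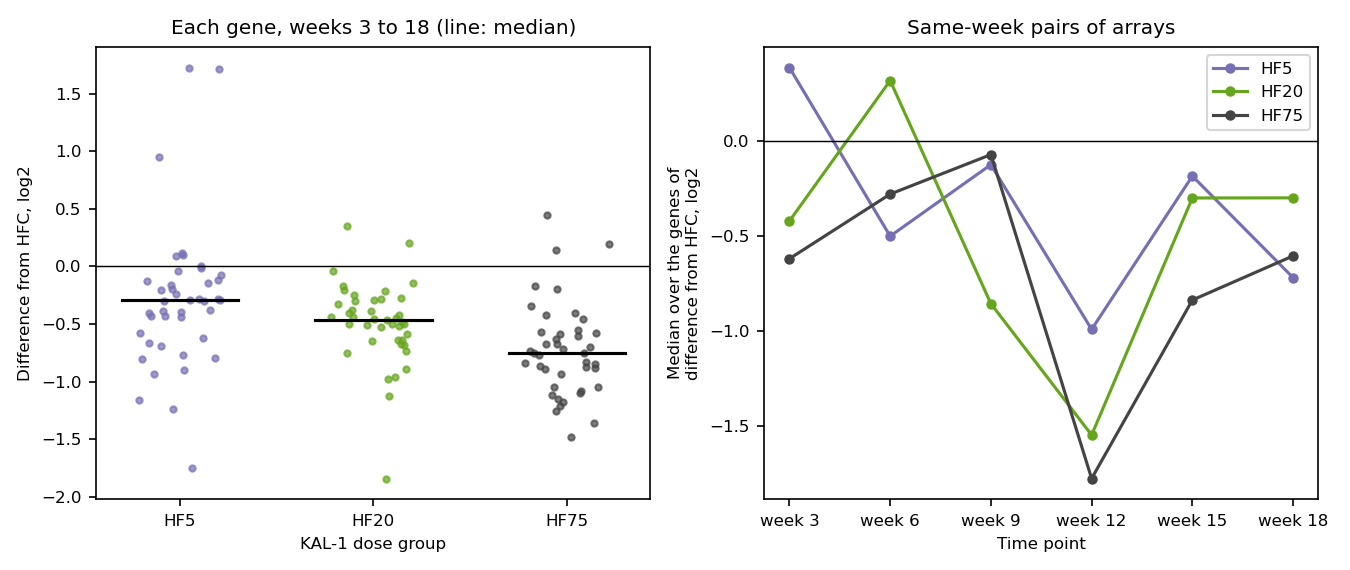
Left, difference from HFC in log2 signal for each member tested in weeks 3 to 18 by KAL-1 dose group (points) with the median over members (line). Right, median over the members of the difference between each dose and HFC in the same week, 1 pair of arrays per point, with the lowest points at week 12 where the HFC array stood apart.

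Other genes of cell division were compared in the same way. Of 48 further mitosis genes, a list that was also written with earlier results known, 46 were on the array. On LFC 44 of 46 were lower late, with a median of -1.85, and 8 fell at an adjusted p under 0.05 in limma, against 0.220% of all probes, among them Cdc2a, the mitotic kinase Cdk1 under its older name, at -3.20 (SE 0.41, adjusted p = 0.00572) and the kinesin Kif15 at -2.75 (adjusted p = 0.0461). The theme was picked on this LFC contrast, so the LFC counts are no independent support. Without LFC week 3 the median was -1.94 and 16 were called, against 0.398% of all probes. On HFC 45 of 46 were lower, with a median of -1.25, 32 at an unadjusted p under 0.05, against 8.80% of all probes, and 0 called. Without HFC week 12 the median was -1.40 and 33 of 46 reached that p, against 7.63% of all probes. Cdc2a had -2.40 there (SE 0.56, adjusted p = 0.21), and the kinesins Kif18b and Kif14 had -2.47 and -2.10. Against HFC, their medians were -0.41 on HF5, -0.41 on HF20 and -0.58 on HF75, and -0.28, -0.29 and -0.42 without HFC week 12 and LFC week 3.

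Genes of DNA replication, the step before mitosis, were also lower late, with 29 of 29 on LFC and 27 of 29 on HFC and medians of -1.11 and -1.002. On LFC Rrm2, a subunit of the enzyme that makes deoxynucleotides, and Tk1, thymidine kinase, fell at an adjusted p under 0.05 (-2.15, adjusted p = 0.0343, and -2.66, adjusted p = 0.0461, limma), against 0.220% of all probes. Without LFC week 3 the median was -1.002 and 4 of 29 were called, against 0.398% of all probes. This list too was written with earlier results known, and the theme was picked on this LFC contrast. The LFC calls are therefore no independent support. On HFC 0 of 29 were called and 17 were lower at an unadjusted p under 0.05, against 8.80% of all probes. Without HFC week 12 there were 18, against 7.63% of all probes, with a median of -0.94. The HFC differences were -2.10 for Tk1 and -1.44 for the helicase subunit Mcm5, while Pcna, the sliding clamp, and Mcm4 lay at 0.13 and 0.07. Against HFC the replication list had medians of -0.05 on HF5, -0.19 on HF20 and -0.07 on HF75. Of 19 genes that restrain the cell cycle, 18 were tested, with medians of 0.14 on LFC and -0.03 on HFC, and none was called in limma on either diet, with 1 lower on LFC and 1 higher and 1 lower on HFC at an unadjusted p under 0.05.

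Markers of some other cell types also lay lower or higher in the late period, and their part in the result was not tested. All 4 mesothelial markers, Msln, Upk3b, Wt1 and Krt19, were lower late on both diets, with medians of -1.32 on LFC and -1.30 on HFC and summed levels of 2.41 to 3.63 early and 0.09 to 4.18 late on LFC and of 2.94 to 4.42 early and -0.36 to 4.56 late on HFC. All 4 B cell markers were higher late, with medians of 1.59 on LFC and 0.61 on HFC, and all 5 endothelial markers were higher late on HFC, with a median of 0.92 against -0.06 on LFC. The 5 T cell markers had medians of 1.16 on LFC and -0.0076 on HFC. Macrophage markers, 7 on the array, had medians of 0.29 on LFC and -0.32 on HFC, the 8 adipose progenitor markers -0.11 and 0.36 and the 7 adipocyte markers -0.17 and -0.77. The 6 epididymis markers had -1.05 and -0.84, the 3 red blood cell markers 0.17 and -0.20, and the skeletal muscle markers 0.53 and 0.76. The sum of the 8 testis and germ cell markers, which come from a neighbouring organ rich in dividing cells, ranged from -1.31 to 5.33 on the early LFC arrays, with the highest value on day 10, and from -1.12 to 2.81 on the late ones, while on HFC it ranged from -0.51 to 0.20 early and from -1.81 to 2.98 late. With both arrays that stood apart left out, the epididymis markers had -1.87 on LFC and -0.87 on HFC, the adipocyte markers -0.05 and -0.53, the adipose progenitor markers 0.10 and 0.48, the macrophage markers 0.56 and -0.24, the endothelial markers 0.17 and 0.88 and the mesothelial markers -1.31 and -1.27. No list of markers had a member called in these comparisons.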

How the data were processed

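Epididymal adipose RNA was labelled with Cy3 and hybridised to 39 1-colour Agilent arrays. Per the file headers, the deposited scanner files hold each spot's processed intensity, background-corrected by Agilent Feature Extraction (version 9.1 per the submitters' notes), with background, outlier and saturation flags. The authors also deposited a matrix of log2 differences from LFC, with unstated centring (column medians -2.19 to 0.97). It correlated with log2 differences of the scanner values at 0.992 to 1, and it served as an alternative. Number of arrays and signal over background limit the precision.

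The processed intensity was scaled as log2 minus the array's 75th percentile, control spots were left out, outlier-flagged spots were treated as missing, and spots of a probe were averaged. Groups came from the labels. Tests were two-sided limma fits (3.58.1, R 4.3.3, data.table, version 1.17.8) with Benjamini-Hochberg adjustment over all probes tested at 0.05. A probe was tested if its flag was set on no fewer than 5 of 11 arrays (LFC), 4 of 10 (HFC), 6 of 24 (week trend), 10 of 20 (HFC against LFC) or 6 of 30 (late weeks). The week trend used a random block for the week, with its correlation (0.138) estimated from 2000 probes. The comparisons of diets used the time point as a block, and this also pairs the arrays. The fits were tested on simulated data.

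The members and all gene lists were chosen with earlier results of these data known. Values on each array are given for the brightest member of each role group, for members that earlier results had named, and for the 3 largest and 3 smallest HFC differences. For a gene with no array of a group above background, a bound was computed from the dimmest signal above background on each array. Alternatives were normexp (offset 50), quantile and median scaling, outlier spots kept, other filters, array weights, each time point left out, week 0 alone as early, the methods' t-test, the authors' values and the slide as a block. A 75th percentile without outlier spots was added after seeing the data. The lists covered other mitosis genes, DNA replication, cell cycle brakes and markers of adipocytes, adipose progenitors, macrophages, endothelium, B cells, T cells, testis, epididymis, red blood cells, mesothelium and skeletal muscle.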

Additional observations from a re-analysis of the deposited data

Results flagged for a closer look

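Over the 17 members whose values are given on each array and the median over the members, 126 groups of 4 to 6 arrays were looked at for a highest or lowest array far from the rest by Dixon's criterion, and 3 stood out, where chance alone would give about 6.3. Ccnb2 on the HF5 week 18 array was the lowest of 6, at -1.81 with the next array at -0.46. Kif22 on the LFC day 6 array was the highest of 5 early arrays, at 3.08 with the next at 1.67. Esco2 on the LFC week 0 array was the highest of 5, at -2.58 with the next at -3.89.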

How the results depend on the processing

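On LFC the number of members lower late was 39 of 43, and it was 20 of 22 when only probes well above background on every array were kept, since fewer members were tested. The LFC median was -2.39, and it was -0.95 with normexp, while the difference between the means of the per-array medians went from -1.98 to -0.80 with normexp. The cause of the smaller values was not tested. Leaving out each array in turn moved the LFC median from -2.56 to -2.13 and the HFC median from -2.04 to -1.36. On HFC the number of members called was 0 in the main setting. With array weights it was 34 (33 without Esco2), where 3973 probes in all were called lower. It was 0 to 6 when each array was left out in turn (up to 5 without Esco2). With normexp, 19 members were lower on HFC at an unadjusted p under 0.05, against 3.07% of all probes. The main setting had 37, against 8.80%. The median of HFC minus LFC was 0.26, -0.041 with normexp and -0.10 with array weights, and in weeks 3 to 18 it was 0.56 and -0.065 with normexp. The median of HF5 minus HFC was -0.29 and 0.059 after median scaling. Of single members on HFC, Ttk went to 0.14 with normexp, and with week 0 alone as early Bub1 went to 0.043, Ndc80 to -1.23, Kif11 to -1.38 and Racgap1 to -0.80. Kif11 ranged from -0.072 to 1.05 when each array was left out in turn, and it was -0.021 without week 18. Of 910 values of single members under an alternative, 903 kept their sign, and 39 of 44 members lay below 0 on HFC under every alternative run. The calls over all probes were 149 on LFC, with a range from 0 (normexp) to 330 (array weights), and 0 on HFC, with up to 7917 (array weights). In the comparisons of diets and in the week trend, no member was called under any alternative run, the methods' t-test, the authors' table and the slide as a block included. Scan date as a random block was not run within LFC or within HFC, where each scan date holds 1 array of the diet. It was not run for the comparisons of diets and doses or for the week trend either. At week 6, HF20 and HF75 were scanned on another date than HFC. At week 3, LFC was scanned on another date than the other groups. The arrays carry no replicate numbers. The comparisons of diets were paired by time point in the fits themselves, and no pairing could be made between the periods of a diet. Dim members limit the precision, since Ttk, Esco2, Cenpm and 2610002D18Rik were above background on fewer than 20 of 39 arrays.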
